A study of Homo sapiens with 3 samples.

Results

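Genes for the enzymes that add methyl groups to histone lysines, and for those that take them off, were described in RNA recovered with CTCF from U2OS cells, a human osteosarcoma line. The members were the protein-coding genes of the deposited table whose symbol starts with KDM, KMT, SETD, SUV39H, EHMT, PRDM, or NSD followed by a digit. There were 49 of them among 17201 listed genes, 12220 of which were protein-coding. CTCF is a zinc-finger protein that binds DNA and holds chromatin loops. In PAR-CLIP, cells are fed 4-thiouridine, ultraviolet light links the labelled RNA to proteins it touches, and the RNA that stays with the precipitated protein is sequenced. All cells were unmodified U2OS given 400 µM 4-thiouridine for 16 to 24 h and 400 mJ/cm2 of light at 365 nm, and CTCF was precipitated from nuclear lysate with 1 of 2 lots of one antibody. The values come from 1 library set, the merge of both biological replicates, so there was no comparison between conditions and no replicate error. A control precipitation, an input and the abundance of each RNA were not analysed here. The counts thus describe what was recovered and not a preference of CTCF.

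Histone tails carry methyl marks whose position decides what they are known for. Methylation of H3K4 marks promoters and enhancers, H3K36 the bodies of transcribed genes, H3K9 silent heterochromatin, H3K27 Polycomb-silenced genes and H4K20 compacted chromatin. Most of the methylases, or writers, carry a SET domain. The demethylases, or erasers, are amine oxidases (KDM1) or JmjC-domain oxygenases (the other KDM genes). PRDM proteins join a domain related to SET with zinc fingers and act mainly as sequence-specific regulators.

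Of the 62 protein-coding genes that RefSeq annotates under these symbols, 49 (79.0%, exact 95% Clopper-Pearson interval 66.8 to 88.3%) were listed. Among the writers and erasers 41 of 47 were listed, and in the PRDM family 8 of 15. The same share over all RefSeq protein-coding genes was not computed, so these shares cannot be called high or low. Genes that did not appear include KDM4D, KDM4E, KDM4F, KDM5D, KMT5C, PRDM7, PRDM8, PRDM9, PRDM12, PRDM13, PRDM14 and the read-through gene SETDB2-PHF11. The lowest count in the table is 6, so an absent gene had fewer or was not among the features counted. PRDM7 and PRDM9, like the KDM4D to KDM4F group, are close copies of each other, and reads that fit several places could have been placed on either or on neither.

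Counts of the 49 members ran from 6 to 681 with a median of 88, against 43 for all listed protein-coding genes. The median was 154 without the PRDM genes and 164.5 without 9 members whose listed interval was taken to be shorter than the gene (EHMT2, KDM3A, KDM4B, KDM6B, KMT2C, NSD1, PRDM2, PRDM15 and SETDB1). This rests on general knowledge of the genes and not on an hg19 annotation, which was not used here, and other members may have incomplete intervals too. The members' counts summed to 7653, which is 0.579% of the table's summed count of 1322047, and the 10 highest members held 54.1% of it. In all, 24 members had 100 counts or more (49.0%), where 26.1% of listed protein-coding genes did. Counts rise with the length of the interval. Across the 49 members Spearman's rho of the 2 measures was 0.53, and across the 12220 protein-coding genes 0.43, given as a description of genes that share 1 library. Each member was therefore also set against its length peers, the 200 listed protein-coding genes nearest to it in interval length. On that scale 30 of 49 members lay above their peers' median, where 49.8% of protein-coding genes did. There were 23 members (46.9%) at 2 times that median or more, against 26.3% of protein-coding genes, and 8 (16.3%) at 0.5 times or less, against 27.2%. The median ratio to the length peers was 1.84. The spread around it was wide, from 0.073 for PRDM6 to 13.9 for KMT2D.

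**Figure D1:**
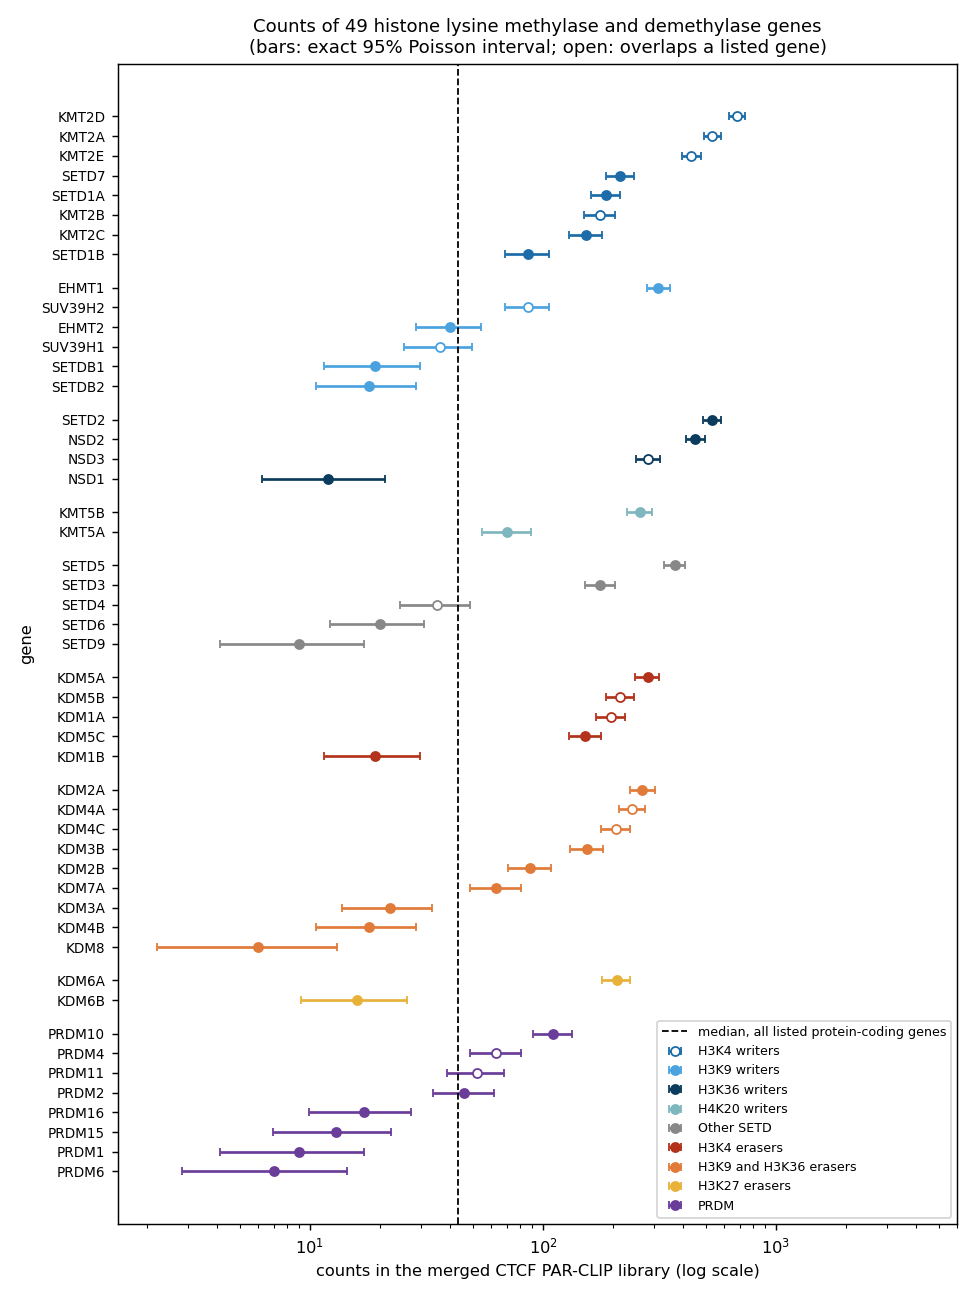
Counts of the 49 members in the merged library on a log axis, grouped by role, with exact 95% Poisson intervals as bars and open points for genes that overlap another listed gene. The dashed line is the median of all listed protein-coding genes, 43 counts. All 8 H3K4 writers lie to its right, and 4 of the 8 PRDM genes lie clearly to its left.

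All 8 listed H3K4 writers were at more than 2 times their length peers, with a median ratio of 4.37 and a lowest ratio of 2.29. Restricted to genes that share no base with another listed gene, their median was 3.18. KMT2D, which makes the enhancer mark H3K4 monomethylation, had 681 counts (exact 95% Poisson interval 631 to 734) over 36.35 kb of chromosome 12 (49412758 to 49449107, hg19). This was 13.9 times the median of its length peers, and its count lay at the 98.9th percentile of protein-coding genes. KMT2A, the MLL gene of leukaemia translocations, had 533 (489 to 580) on chromosome 11 (118307205 to 118397539), or 5.99 times its peers. KMT2E, a relative for which methylase activity is in doubt, had 433 counts (393 to 476) on chromosome 7 (104654626 to 104754532), a ratio of 4.51. Below them came SETD7, which adds a single methyl group to H3K4 and to other proteins, with 215 counts. SETD1A, a catalytic subunit of the COMPASS complex that makes most H3K4 trimethylation, had 186, and its paralogue SETD1B had 86. KMT2B had 175 counts in only 20.9 kb, a ratio of 5.00. KMT2C had 153 in an interval of 43.0 kb that is only a stretch of this long gene.

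The H3K36 writers were also far above their length peers, apart from NSD1. SETD2, which trimethylates H3K36 behind elongating RNA polymerase, had 532 counts (488 to 579) on chromosome 3 (47057919 to 47165277). No other listed gene overlaps it, and its ratio was 6.33. NSD2 and NSD3 make H3K36 dimethylation. NSD2 had 451 counts (410 to 495) on chromosome 4 (1873151 to 1980641), a ratio of 5.31, and NSD3 had 282 (250 to 317), a ratio of 3.02. NSD1, the third paralogue and the gene of Sotos syndrome, had 12 counts (6.20 to 21.0). Its listed interval, 2.40 kb of chromosome 5 (176560026 to 176562427), is shorter than its coding sequence, so the count covers a small piece of the gene. Its ratio to length peers was 0.923. Per kb NSD1 had 5.00 counts against 4.20 for NSD2, a difference within counting error (ratio of NSD2 to NSD1 0.840, exact 95% interval 0.476 to 1.64).

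H3K9 writers were spread over a wide range. EHMT1, which with EHMT2 forms the G9a/GLP enzyme of H3K9 dimethylation, had 313 counts (279 to 350) on chromosome 9 (140513444 to 140678845), 2.94 times its length peers. EHMT2 had 40 counts in a 5.05 kb interval that does not span its gene, a ratio of 2.11. The heterochromatin enzymes SUV39H2 and SUV39H1 had 86 and 36 counts, both in intervals shared with a gene of higher count. SETDB1, which silences retroelements with TRIM28, had 19 counts (11.4 to 29.7) in a 15.1 kb interval that also covers only part of the gene. SETDB2 had 18 counts (10.7 to 28.4) over 47.8 kb, 0.305 times its peers. Of the 6 genes, 3 (EHMT1, EHMT2 and SUV39H2) were at 2 times their length peers or more and 1 was at 0.5 times or less. For EHMT2 and SUV39H2 the limits given above apply to this tally.

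The H4K20 writers KMT5B and KMT5A had 260 counts (229 to 294) and 70 (54.6 to 88.4). KMT5A makes monomethylated H4K20, and KMT5B adds further methyl groups to it. Their ratios were 3.71 and 1.89. Of the 5 other SETD genes, SETD5, a chromatin regulator linked to intellectual disability, had 367 counts (330 to 407) over 43.1 kb of chromosome 3 (9439299 to 9482382), a ratio of 5.87. SETD3, an actin histidine methylase and thus no histone enzyme in its best-known role, had 176. SETD4 had 35 counts, SETD6, which methylates the NF-kappaB subunit RelA, 20, and SETD9 had 9 (4.12 to 17.1). The median ratio of the 5 was 0.952, and 1.54 without SETD4, which overlaps another listed gene, and with length peers that overlap none.

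**Figure D2:**
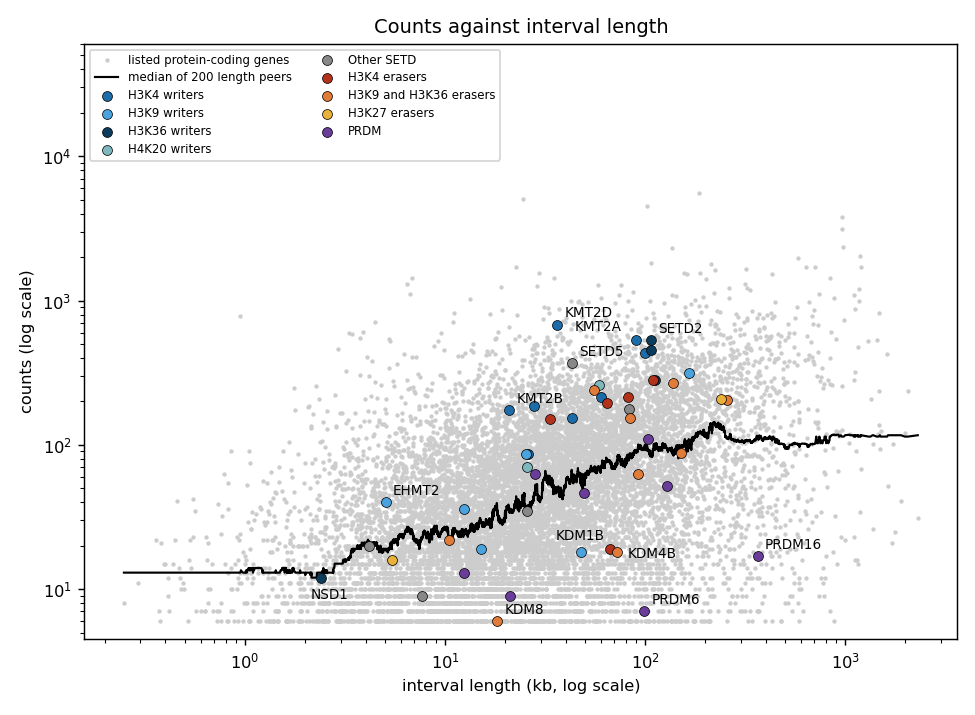
Count against interval length, both on log axes, for the 12220 listed protein-coding genes (grey) and the 49 members (coloured by role), with the median of 200 length peers as a line. KMT2D stands 13.9 times above the line, while PRDM6, PRDM16 and KDM8 lie furthest below it.

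Among the erasers of H3K4 methylation, 4 of 5 listed genes were at 2 times their length peers or more, and the group's median ratio was 2.62. The KDM5 enzymes remove di- and trimethyl H3K4. KDM5A had 281 counts (249 to 316) on chromosome 12 (389295 to 498620), KDM5B 214 (186 to 245) on chromosome 1 and the X-linked KDM5C 152 (129 to 178). Their ratios, 3.14, 2.64 and 2.62, were close to each other. KDM1A, the flavin-dependent demethylase LSD1 of the CoREST complex, had 195 counts (169 to 224), a ratio of 2.53, in an interval that an antisense gene of higher count covers almost wholly. KDM1B, its paralogue, had 19 (11.4 to 29.7) over 66.7 kb, a ratio of 0.255.

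Erasers of H3K9 and H3K36 methylation were spread from 0.171 times their length peers for KDM8 to 3.65 times for KDM4A. KDM2A, which binds CpG islands and demethylates H3K36, had 267 counts (236 to 301) over 138.4 kb, 3.14 times its peers, whereas KDM2B had 88 (70.6 to 108) over 151.5 kb, or 0.912 times. The KDM4 enzymes act on trimethylated H3K9 and H3K36. KDM4A had 241 counts (212 to 273) and a ratio of 3.65. KDM4C had 205 (178 to 235) over 256.7 kb and a ratio of 1.84. KDM4B had 18 (10.7 to 28.4) over 72.1 kb, a part of its gene, and a ratio of 0.247. Of the H3K9 demethylases of the KDM3 type, KDM3B had 154 counts and KDM3A 22, the latter in 10.5 kb of a longer gene. KDM7A had 63 counts, 0.627 times its peers. KDM8, a JmjC protein whose activity on histones is disputed, had 6 (2.20 to 13.1), which is the floor of the table. The median ratio of these 9 genes was 0.978, and 1.82 without KDM3A and KDM4B, whose intervals were taken as incomplete.

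Of the H3K27 erasers, KDM6A had more counts and a higher ratio to length peers, and KDM6B had more counts per kb. KDM6A (UTX), X-linked and part of the KMT2C and KMT2D complexes, had 207 counts (180 to 237) over 239.1 kb, 1.59 times its peers. KDM6B (JMJD3), an inducible enzyme, had 16 (9.15 to 26.0) in a 5.44 kb piece of its gene, 0.744 times its peers. That is 2.94 counts per kb for KDM6B and 0.866 for KDM6A. The median count of length peers was 21.5 for KDM6B and 130.5 for KDM6A, so counts rose less than in proportion to length. Density therefore favours the shorter interval.

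The PRDM genes had a median ratio of 0.537, the lowest of the 9 role groups under each alternative that kept them. None (0) of the 8 reached 2 times the level of their length peers, and 3 were at 0.5 times or less. PRDM10 had 110 counts (90.4 to 133), PRDM4 63, PRDM11 52 and PRDM2 46, the last in a part of its gene. PRDM16, a regulator of brown fat and of haematopoietic stem cells, had 17 (9.90 to 27.2) over 365.2 kb, which is 0.0466 counts per kb and the lowest density of any member. PRDM15 had 13. PRDM1 (Blimp-1), which drives plasma-cell differentiation, had 9 (4.12 to 17.1), and PRDM6, known from vascular smooth muscle, had 7 (2.81 to 14.4) over 98.9 kb. Another large group of zinc-finger genes, the 354 listed ZNF genes, had a median ratio of 0.688. The 10 listed CHD genes, ATP-dependent remodellers that read some of these marks, had 4.40. No test was run between these groups, so the values stand side by side only.

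**Figure D3:**
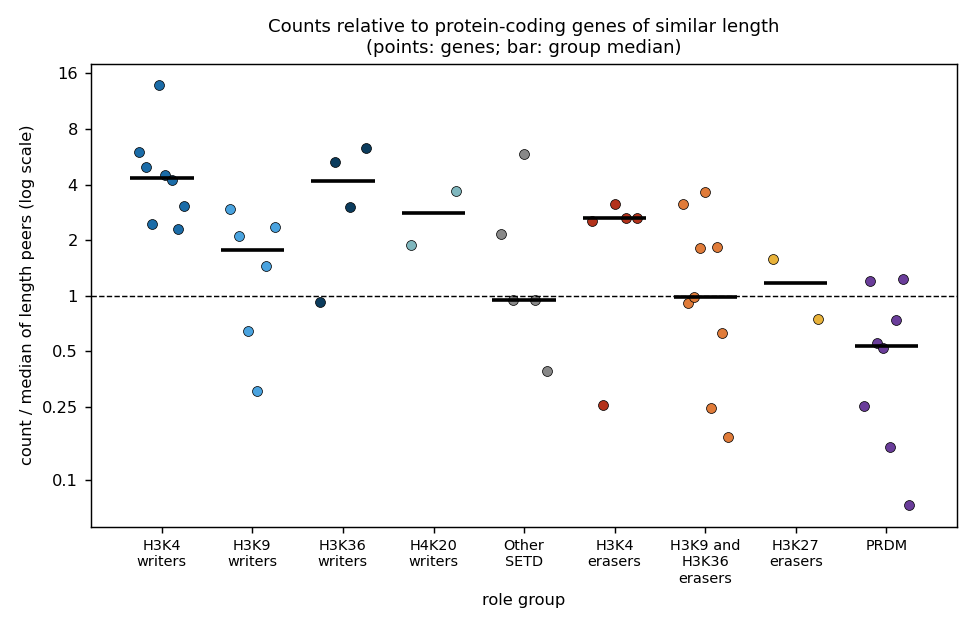
Count of each member divided by the median count of its 200 length peers, on a log axis, by role group, with bars at the group medians. The medians are 4.37 for the H3K4 writers, 2.62 for the H3K4 erasers and 0.537 for the PRDM genes, and KDM1B is the 1 H3K4 eraser below the dashed line at 1.

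Writers and erasers of the same mark were set side by side. For H3K4, 8 writer genes summed to 2462 counts with a median of 200.5, and 5 eraser genes to 861 with a median of 195. Their median densities were 5.12 and 2.61 counts per kb. For H3K9 and H3K36 as one set, 10 writer genes summed to 1789 counts with a median of 63, and 9 eraser genes to 1064 with a median of 88. Per kb the order was the other way, with medians of 3.14 for the writers and 0.799 for the erasers. The order by count rests on members with intervals taken as incomplete: without them the medians were 282 counts for 7 writer genes and 154 for 7 eraser genes. The median eraser interval was longer, 77.1 kb over all 16 eraser genes against 36.35 kb over the 25 writer and other SETD genes. Counts per kb tend to be lower in long intervals.

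Related genes were then compared within the library, as the ratio of their counts with an exact 95% interval from the binomial split of both counts. The 17 pairs were chosen after the counts were known, with the higher gene first, so the direction of the count ratio is fixed by that choice. The order per kb was not fixed by the choice but was favoured by it, since counts per kb have the same count as numerator. The first gene was also the higher per kb in 9 pairs, whose interval per kb lay above 1. These 9 thus add no separate evidence on the order. In 4 pairs the interval included 1, and in 4 it lay below. KDM4A had 17.4 times the counts per kb of KDM4B (10.8 to 29.9), and KDM1A 10.7 times those of KDM1B (6.64 to 18.1). KMT2D had 5.27 times the density of KMT2C (4.42 to 6.32), and KDM2A 3.32 times that of KDM2B (2.60 to 4.27). On the scale of the length-peer ratio the first gene was the higher in 17 of 17 pairs. The choice by count favoured this too, since that ratio has the count as its numerator, so it adds no separate evidence on the order. The order turned round per kb for KMT2A against KMT2B (0.703, 0.592 to 0.839), EHMT1 against EHMT2 (0.239, 0.171 to 0.341), KDM5A against KDM5C (0.563, 0.460 to 0.690) and KDM6A against KDM6B (0.295, 0.177 to 0.525). In each of these 4 pairs the second gene had the shorter interval, such as 5.05 kb for EHMT2 against 165.4 kb for EHMT1. The median count of length peers was 19 for EHMT2 and 106.5 for EHMT1, a smaller rise than that of length. Density thus tends to be higher in short intervals, and these reversals need not mark a difference between the genes. KDM5A and KDM5B could not be told apart in density, with a ratio of 0.986 and an interval of 0.822 to 1.18. The listed intervals of KMT2C, EHMT2, KDM4B and KDM6B were taken as incomplete, so their density is that of the listed stretch, and the counts of KDM1A may belong in part to its antisense gene. The ratio intervals cover counting error only, since copies made by PCR are not separate molecules.

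**Figure D4:**
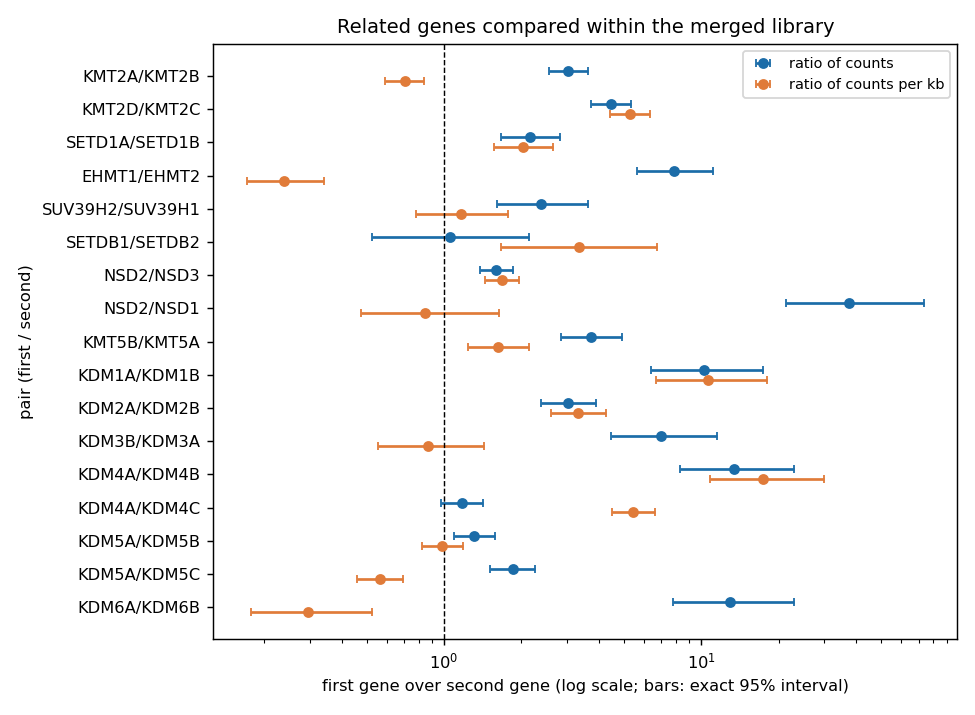
Ratio of the first gene to the second in 17 pairs of related genes, as counts (blue) and as counts per kb of interval (orange), on a log axis with exact 95% intervals. KDM4A over KDM4B and KDM1A over KDM1B are high on both scales, and EHMT1 over EHMT2 and KDM6A over KDM6B change sides.

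Some members share their interval with another listed gene. A read there could enter the count of each gene. There were 579 pairs with an antisense gene wholly inside another listed gene, and in 0 of them did the antisense gene have the larger count. Whether reads were counted by strand is not given and was not tested. An overlap was found for 14 of the 49 members (28.6%), against 34.7% of listed protein-coding genes. In 3 of them the other gene had at least 50% of the member's count. KDM1A (195 counts) lies for 98.9% of its interval under ENSG00000240553, an antisense gene with 258 counts. SUV39H1 (36) shares 80.9% of its interval with the antisense gene ENSG00000232828 (46). SUV39H2 (86) shares 27.3% with DCLRE1C, a nuclease gene of DNA repair with 198 counts. For these 3 members the counts do not show which gene the RNA came from. For the other 11, a lower bound was obtained by taking away every count of each overlapping gene. KMT2D kept at least 618 of its 681 counts and KMT2E at least 366 of 433, although KMT2E touches both KMT2E-AS1 (7 counts) and SRPK2 (60). KMT2A kept at least 378 of 533 beside TTC36-AS1 (155), which is still 4.25 times its length peers. KDM4A kept at least 176 of 241 beside KDM4A-AS1 (65), a ratio of 2.67. The bound was lower for PRDM11 (30 of 52) and SETD4 (16 of 35).

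Copies of members elsewhere in the genome were also listed. KMT2CP5, a partial copy of KMT2C on chromosome 2 (91874128 to 91900136), had 12 counts over 26.0 kb. KMT5AP2, a pseudogene of KMT5A on the same chromosome (91935966 to 91937012), had 29 counts over 1.05 kb, against 70 over 25.6 kb for KMT5A itself. How reads that fit both a gene and its copy were placed is not given in the sources used here, so the counts of KMT2C and KMT5A are uncertain.

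The partners of these enzymes outside the symbol rule were read in 5 lists, whose counts of genes at 2 times their length peers or more stand against 26.3% of all listed protein-coding genes. In the list of COMPASS partners, 11 of 13 genes were listed with a median ratio of 1.68 to length peers, and 5 were at 2 times or more. DPY30 had 263 counts, HCFC1 256 and RBBP5 221, but DPY30 shares its interval with MEMO1 (257 counts), so only 6 of its counts are certain to lie outside that overlap. The lowest were HCFC2 (29) and CXXC1 (30), and the core subunit WDR5 had 52. Genes in the list of H3K9 readers and silencing factors were higher. All 12 were listed and above their length peers, 10 of them at 2 times or more, with a median count of 164.5 and a median ratio of 3.38. PPHLN1 of the HUSH silencing complex had 358 counts, the HUSH effector MORC2 233 and the HP1 gene CBX3 225. PPHLN1 overlaps 3 listed genes and kept at least 171 counts without theirs. CBX5, another HP1 gene and 1 of the 10, had 219 counts in an interval that overlaps a gene with 301, so its own count is not resolved. ATF7IP, the partner of SETDB1, had 99, and the DNA methylase DNMT1 had 52.

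Of the CoREST partners of KDM1A, 10 of 11 were listed with a median ratio of 1.57, and 4 were at 2 times their length peers or more. HDAC2, a histone deacetylase, had 377 counts in an interval shared with HDAC2-AS2 (522), GSE1 had 147 and HMG20B 146. RCOR3 had 35. Other lysine methylases had lower ratios, with 10 of 11 listed, a median of 0.785 and 1 gene at 2 times or more. That gene was ASH1L, an H3K36 methylase, with 515 counts. SMYD2 had 119 and DOT1L, the H3K79 methylase, 118, while SMYD5 had 13 and SETMAR 11. In the list of other JmjC proteins 9 of 10 were listed with a median ratio of 1.22, and 3 (33.3%) were at 2 times or more, a share near that of all protein-coding genes. JARID2, a Polycomb partner without demethylase activity, had 289 counts and PHF8, an eraser of H3K9 dimethylation, 104. RIOX2, 1 of those 3, had 123 in an interval shared with CRYBG3 (157). The interval of UTY, a close relative of KDM6A, held 26 counts over 232.3 kb, of which at most 23 belong to the overlapping pseudogene PSMA6P1. Whether its reads came from UTY or from a relative such as KDM6A was not tested. HR had 6 counts.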

How the data were processed

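One deposited table was used, that of the merge of both replicates. It holds whole-number counts per Ensembl gene, which the authors made from the merged sequencing data, per the labels. The submitters' processing notes name hg19 as the build, and Bowtie and bedtools among the tools. How reads were counted is not given in the sources used here. No scaling for depth or length was applied, and each listed gene has 6 counts or more, so the sum of 1322047 is not the library size. Of 17201 identifiers, 16520 were paired with a symbol and 681 were not. RefSeq (GRCh38.p14) gave the annotated family, by name only.

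Counts per kb used the whole listed interval. They tend to be higher in short intervals, since counts rose less than in proportion to length. The ratio to length peers divides a count by the median of the 200 listed protein-coding genes nearest in log length. Its code was checked on simulated counts drawn around that same median, which does not show how well the ratio suits these data. The 95% Poisson intervals are exact and cover counting error only. The Clopper-Pearson interval is exact but treats the annotated genes as independent draws, although they are a fixed family. It does not measure counting error. Python 3.11.15, pandas 2.3.3, NumPy 2.4.6 and SciPy 1.17.1 were used. No p-value was computed. Every listed member could be named. In each list outside the rule the 3 highest and 2 lowest genes were named, apart from what is not reported here, and WDR5 was added after its value was seen. The members, lists and rules were chosen with earlier results of these data known. Alternatives covered overlap, low counts, the PRDM genes, the number and class of length peers, and the thresholds.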

Additional observations from a re-analysis of the deposited data

How the results depend on the processing

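Without genes that overlap another listed gene, 35 members were left, fewer by construction. Of these, 15 had 100 counts or more (23.6% of such protein-coding genes did), and 15 were at 2 times their length peers or more (26.9%). At a ratio of 4 instead of 2, 8 members passed (9.59% of protein-coding genes). Of the 14 members that overlap a listed gene, 3 overlap a protein-coding one and 8 are covered for at least 10% of their interval. The median ratio over all members was 1.31 without overlapping genes and 2.29 without the PRDM genes. Medians of small role groups were judged against the range of their own members, which says nothing about their stability. Leaving out members with intervals taken as incomplete, and the lower bounds on counts, were chosen after the data had been seen. The lower bound was outside the Poisson interval of the count for 10 of 14 members. No paired analysis was possible because the table has a single column of merged counts, and no replicate could be left out. Depth limits the 4 members with 10 counts or fewer, whose order is not resolved.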
